A study of Drosophila melanogaster with 2 samples.

Results

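The genes described here encode the subunits of the Drosophila proteasome and their paralogues. Membership was set by name, as the protein-coding genes of the Ensembl annotation whose symbol starts with Prosalpha, Prosbeta, Rpn or Rpt followed by a digit. Of 13968 protein-coding genes, 48 met this rule. The family itself was chosen with earlier results of these data known. Of the 48, 25 belonged to the core particle and 23 to the regulatory particle. By their suffix, 32 were unsuffixed genes for the standard subunits, 4 were testis-type paralogues with a T in the symbol and 12 were related copies with an R. Chromatin immunoprecipitation and sequencing with an anti-GFP antibody had been carried out on transgenic embryos, 0 to 24 h old, that expressed the product of CG14014 as a fusion with enhanced GFP. There were 2 biological replicates of this 1 genotype and no second group, so no condition was compared. Both libraries came from whole embryos, so a peak cannot be assigned to a cell type, and no untagged or input control was used here. The labels do not give the promoter that drives the fusion protein.

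The proteasome degrades proteins that carry ubiquitin. Its core particle is a barrel of stacked rings: the outer alpha rings gate the entry, and the inner beta rings hold the proteolytic sites of Prosbeta1, Prosbeta2 and Prosbeta5. The regulatory particle caps the barrel. Its base holds the Rpt ATPases, which unfold substrates, with the scaffolds Rpn1 and Rpn2 and the ubiquitin receptor Rpn13, and its lid holds further Rpn subunits, among them the deubiquitinase Rpn11. All tissues need the complex, and Drosophila also has paralogues of several subunits that are known from the male germline.

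The sequences at the summits of 5 of the 8 members with a conservative peak are shown first, so that the peaks described below can be read against their bases; those of Rpn6, Rpn13 and Prosalpha3 are not shown. A summit is the base of highest signal in a peak, and the windows reach 50 bp to each side of it, cut where they would hold more than 30 bases of untranslated region. All are read from the reference sequence of build dm6 on the plus strand. Capitals mark matches to the words searched: TTAAAA in Rpn3; the TATA word TATAAA, the homeodomain word TAATTA and, on the minus strand, TTAAAA in Rpn5; and TTAAAA on either strand in Prosbeta2, where a pair of matches overlap. The windows of Rpn10 and Rpt5 held none of the 9 words in the bases shown, although the whole window of Rpn10 held TTAAAA outside them. The windows are chr2L:19051748-19051819 for Rpn3, chr3R:5789187-5789287 for Rpn5, chr3L:21536970-21537029 for Rpn10, chr3L:14999724-14999824 for Prosbeta2 and chr3R:23752847-23752905 for Rpt5.
Rpn3: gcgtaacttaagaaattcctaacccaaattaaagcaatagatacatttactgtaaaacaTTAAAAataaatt
Rpn5: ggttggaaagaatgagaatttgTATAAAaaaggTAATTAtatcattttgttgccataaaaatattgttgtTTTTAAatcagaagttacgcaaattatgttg
Rpn10: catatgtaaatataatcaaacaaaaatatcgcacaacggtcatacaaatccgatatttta
Prosbeta2: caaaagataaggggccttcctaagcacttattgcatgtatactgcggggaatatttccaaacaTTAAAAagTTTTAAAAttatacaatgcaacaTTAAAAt
Rpt5: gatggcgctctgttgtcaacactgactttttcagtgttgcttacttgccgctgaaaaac

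A second set shows the DNA replication-related element, TATCGATA, in the promoters of members with a summit, because it was the word with the largest excess over all promoters among the 32 unsuffixed genes. Capitals mark the word. The stretches are chr3L:14999930-14999959 for Prosbeta2, chr2L:19051582-19051611 for Rpn3 and chr3R:23752819-23752848 for Rpt5, on the plus strand. The word lay 170 bp from the summit at Prosbeta2, 202 bp from it at Rpn3 and 64 bp from it at Rpt5, so none of these 3 copies was inside the summit window. Prosalpha3, the other member with a summit and the word, is not shown; its copy lay 27 bp from the summit and inside the window.
Prosbeta2: ccatgaatataTATCGATAcaatatcgatt
Rpn3: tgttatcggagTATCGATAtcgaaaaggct
Rpt5: atcgctgtcacTATCGATAagcgccggcga

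Peaks were read from lists that the authors deposited. The conservative list held 3216 peaks reproducible between the replicates, the optimal list 5675, and the thresholded lists of replicates 1 and 2 held 4617 and 2737. The rankings that lie behind these lists, before any threshold, held between 78581 and 116698 peaks. Read totals were not among the files, which leaves the depth of either library unknown. Peak signals were set by the authors on an unstated scale and are compared only within a list.

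A promoter summit, a peak summit within 500 bp of any transcription start site (TSS) of a gene, was found in the conservative list at 8 of the 48 members, which is 16.7% (95% Wilson interval 8.70 to 29.6%). Over all protein-coding genes the share was 14.6%, within that interval. All 8 were unsuffixed genes: the alpha-ring gene Prosalpha3, the beta-ring gene Prosbeta2, the lid genes Rpn3, Rpn5 and Rpn6, the base genes Rpn13 and Rpt5, and Rpn10, a ubiquitin receptor between base and lid. Among the 32 unsuffixed genes the share was 25% (13.2 to 42.1%). None of the 16 testis-type or related copies had such a summit, and with so few genes the interval for that share reached 19.4%, above the share over all genes.

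By particle, 2 of 25 core genes (8%, 2.22 to 24.97%) and 6 of 23 regulatory genes (26.1%, 12.5 to 46.5%) had a conservative promoter summit. The intervals overlapped. Among unsuffixed genes alone the counts were 2 of 14 core genes (14.3%) and 6 of 18 regulatory genes (33.3%, 16.3 to 56.3%). The lid had 3 of 8 genes, the base 2 of 9, the alpha ring 1 of 7 and the beta ring 1 of 7. Over all protein-coding genes the share was 14.6%. In the optimal list the unsuffixed counts were 4 of 14 (28.6%) and 7 of 18 (38.9%), with 21.9% over all genes. Replicate 1 alone gave 3 of 14 (21.4%) and 4 of 18 (22.2%), with 18.6% over all genes. Replicate 2 alone gave 0 of 14 and 3 of 18 (16.7%), with 13.2% over all genes.

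**Figure D1:**
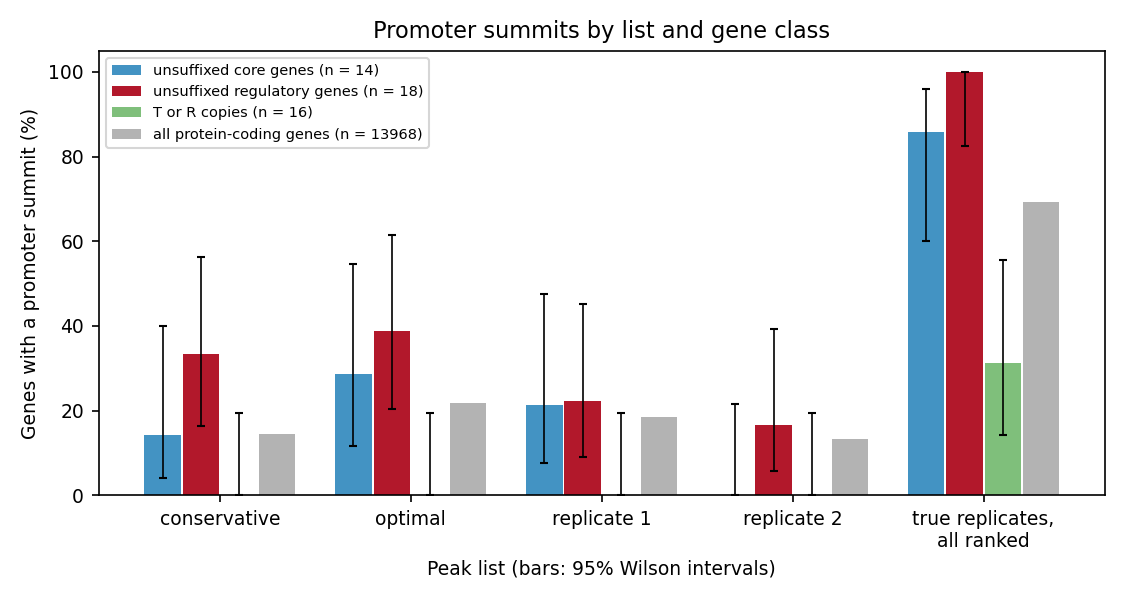
Share of genes with a promoter summit, in percent, for unsuffixed core genes, unsuffixed regulatory genes and copies in 5 peak lists, with 95% Wilson intervals as error bars and the share over all protein-coding genes in grey. In the conservative list the unsuffixed core genes are at 14.3%, the unsuffixed regulatory genes at 33.3%, the copies at 0 and all genes at 14.6%.

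The highest member peak belonged to Rpn3 (FBgn0261396), a scaffold subunit of the lid. It spanned 19051752 to 19051833 on 2L, 82 bp, with its summit 8 bp downstream of the TSS in the 5′ untranslated exon. Its signal of 181 ranked 959 of 3216. In the ranking of replicate 1 the peak had a signal of 107.7 (rank 964), and in that of replicate 2 a signal of 69.95 (rank 1270). Rpn3 was the only one of the 8 members whose peak overlapped a peak in the thresholded lists of both replicates. The gene l(2)37Bb starts 178 bp from Rpn3 on the other strand.

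The other lid genes followed at lower ranks. Rpn6 (FBgn0028689), also a scaffold of the lid, had a peak at 14752217 to 14752546 on 2R with a signal of 107.2 (rank 1979). Its summit lay 111 bp upstream of the nearest Rpn6 TSS and within an intron of a longer Rpn6 transcript. The peak was in the thresholded list of replicate 1 (ranked signal 76.7, rank 1711) and not in that of replicate 2 (27.29, rank 5254). Rpn5 (FBgn0028690), a further lid scaffold, had a peak at 5789072 to 5789401 on 3R with a signal of 105.1 (rank 2033). It showed the reverse, being in the list of replicate 2 (ranked signal 58.17, rank 1685) and not in that of replicate 1 (39.22, rank 4868). The Rpn5 summit lay 256 bp upstream of Rpn5 and 147 bp downstream of the start of Hat1, a histone acetyltransferase gene, in an intron of Hat1, so the TSS of Hat1 was the nearer one.

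Rpn10 (FBgn0015283) was the only one of the 8 members with no other protein-coding TSS within 500 bp of its summit. Its peak at 21536855 to 21537184 on 3L had a signal of 87.1 (rank 2534) and a summit 20 bp downstream of the TSS, in the 5′ untranslated region. It was in the list of replicate 1 (ranked signal 53.53, rank 3032) and not in that of replicate 2 (36.85, rank 3055).

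The base was represented by a ubiquitin receptor and an ATPase. Rpn13 (FBgn0033886) had a peak at 13960369 to 13960698 on 2R with a signal of 77.31 (rank 2830), and its summit was 130 bp upstream of Rpn13 and 141 bp upstream of CtsL1, which encodes a cathepsin. The peak was in the list of replicate 2 (ranked signal 42.46, rank 2565) and not in that of replicate 1 (34.55, rank 5979). Rpt5 (FBgn0028684), one of the ATPases of the base, had a peak at 23752732 to 23753061 on 3R with a signal of 67.91 (rank 3024), the lowest of the 8. The Rpt5 summit lay 21 bp downstream of its TSS and 63 bp upstream of RanBP3, whose start is 42 bp away on the other strand. Rpt5 was the only one of the 8 whose peak was in neither replicate list. Its ranked signal was 43.14 in replicate 1 (rank 4199) and 33.12 in replicate 2 (rank 3537). A second conservative peak over Rpt5, at 23752934 to 23753263 on 3R, had a signal of 3.953 (rank 3199).

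Of the core particle, Prosalpha3 (FBgn0261394), an alpha-ring subunit, had a peak at 20994670 to 20994999 on 2R with a signal of 90.75 (rank 2424). Its summit was intergenic, 65 bp upstream of Prosalpha3 and 454 bp upstream of dgt3, an augmin subunit gene. Prosbeta2 (FBgn0023174), which carries the trypsin-like site, had a peak at 14999609 to 14999938 on 3L with a signal of 68.38 (rank 3019). That summit was 177 bp upstream of Prosbeta2 and 108 bp upstream of mRpL39, a mitochondrial ribosomal protein gene, so mRpL39 was nearer. Both core peaks were in the list of replicate 1 (ranked signals 52.26 for Prosalpha3 and 47.44 for Prosbeta2) and not in that of replicate 2 (35.17 and 34.67). Their ranks were 3155 for Prosalpha3 and 3648 for Prosbeta2 in replicate 1, and 3243 and 3302 in replicate 2. The thresholded list of replicate 2 was the shorter, with 2737 peaks against 4617.

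**Figure D2:**
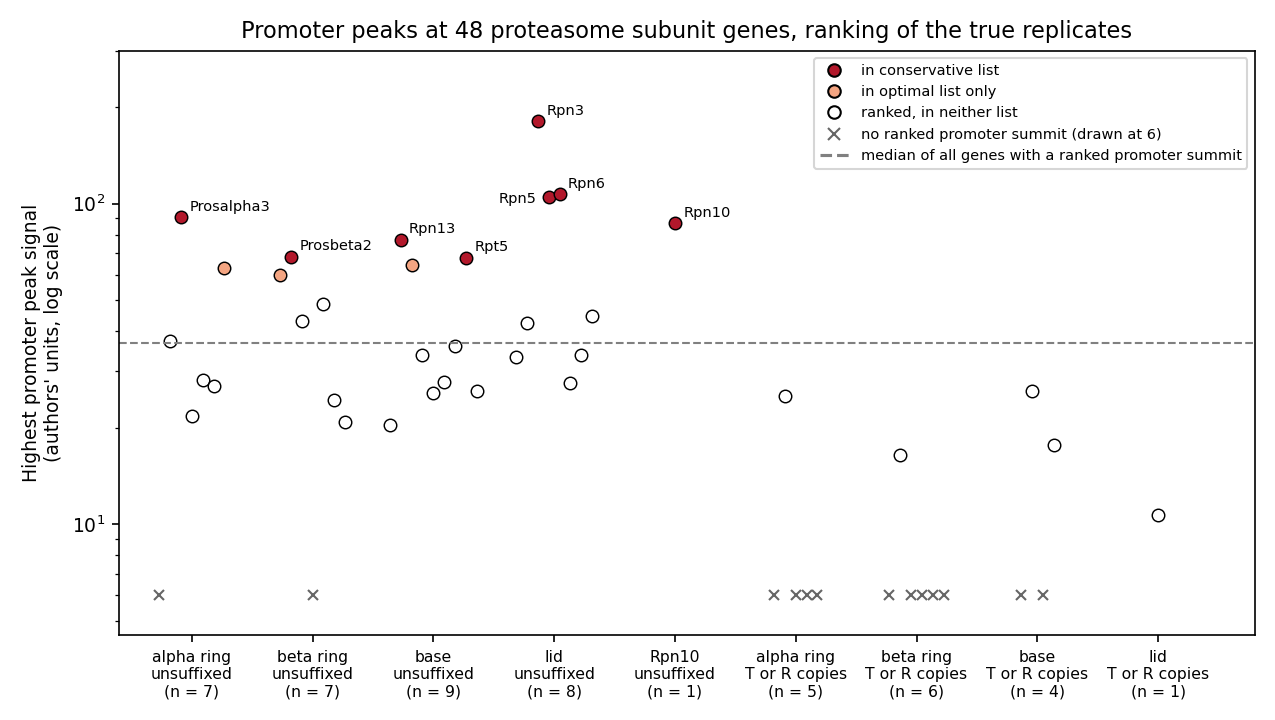
Signal of the highest promoter peak of each member in the ranking of the true replicates (authors' units, log scale), by subunit group, with red points for members in the conservative list, orange for those in the optimal list only, open for the rest and crosses for members with no ranked summit; the dashed line is the median over all ranked genes. Rpn3 stands apart at 181, the other 7 members of the conservative list lie between 67.91 and 107.2, and the 5 copies with a ranked summit lie between 10.72 and 26.03.

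The 8 member peaks stood low in the list. Their median rank was 2479, against 1351 over the promoter peaks of the 2040 genes with a conservative summit, and their median signal was 88.93 against 145. Only Rpn3 ranked above the median gene. In the thresholded lists of the replicates, 5 member peaks (62.5%) were found again in replicate 1, 3 (37.5%) in replicate 2 and 1 (12.5%) in both. Over the 2040 genes these shares were 89.5%, 79.8% and 73.0%. These shares moved with rank over all genes as well. For the 7 members other than Rpn3, which ranked 1979 to 3024, the counts were 4 in replicate 1 (57.1%), 2 in replicate 2 (28.6%), 0 in both and 1 in neither (14.3%). Over the 571 genes with peaks in that span of ranks, the shares were 70.2%, 46.4%, 27.7% and 11.0%.

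**Figure D3:**
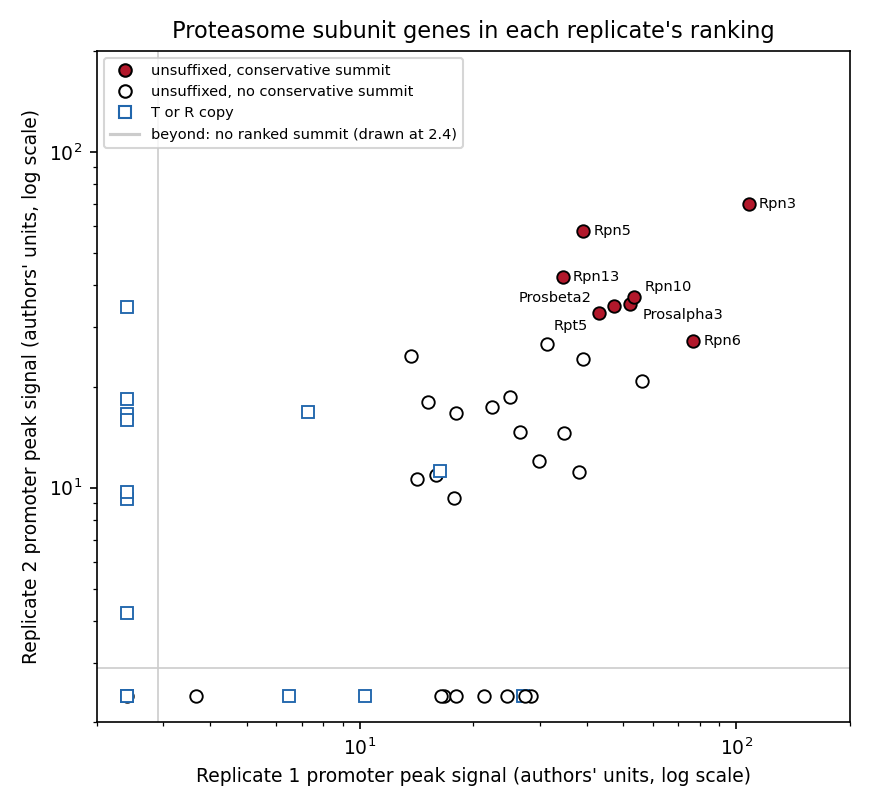
Promoter peak signal of each member in the ranking of replicate 1 (x axis) and replicate 2 (y axis), each in the authors' units on a log scale; members with no ranked summit in a replicate are drawn beyond the grey line. Rpn3 was high in both, Rpn6 lay far along the replicate 1 axis (76.7 against 27.29) and Rpn5 far along that of replicate 2 (39.22 against 58.17); the scales of the 2 rankings are not known to be equal.

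Summits lay upstream of the nearest TSS of the gene at 5 of the 8 members (62.5%) and downstream at Rpn3, Rpn10 and Rpt5, by 8, 20 and 21 bp. Over the 2040 genes 88.2% of summits were upstream, and without Rpn3 the share was 71.4% of 7 members against 87.2% of the 571 genes of their ranks. The median position was -88 bp for members and -131 bp over all genes. At 7 of the 8 members (87.5%) the same summit lay within 500 bp of another protein-coding gene, compared with 58.2% over the 2040 genes. Without Rpn3 it was 6 of 7 members (85.7%) and 55.9% of the 571 genes.

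**Figure D4:**
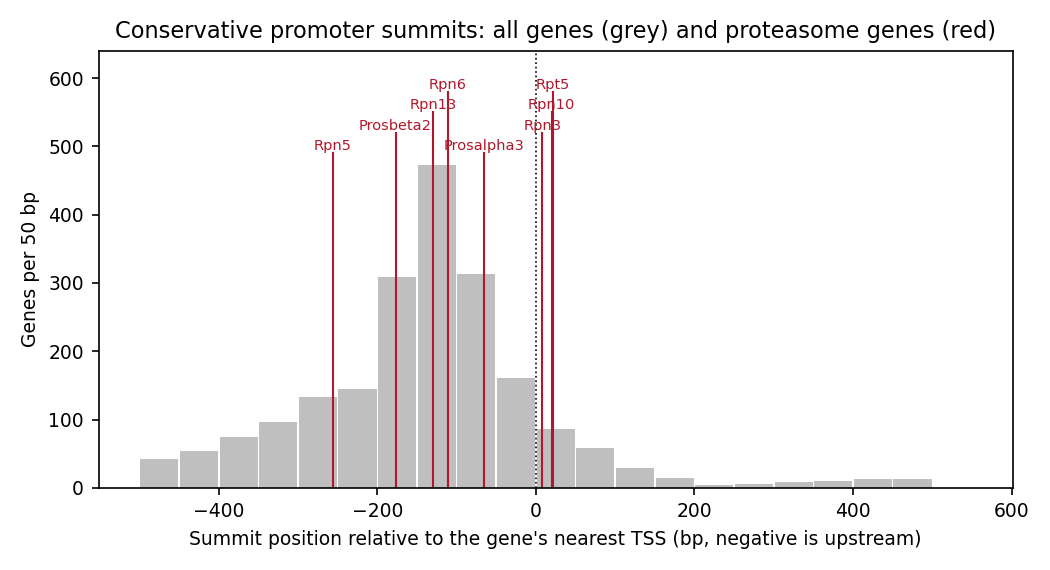
Distance of conservative promoter summits from the nearest TSS of the gene, in bp with upstream negative, as a histogram over all genes with a summit, with the 8 members marked by lines. The member summits ran from -256 bp at Rpn5 to 21 bp at Rpt5, and 3 of them stood just downstream of the TSS.

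Many proteasome genes share their promoter region with a neighbour. A divergent gene, with the TSS of another protein-coding gene head to head within 500 bp, was found for 21 of 32 unsuffixed members (65.6%, 48.3 to 79.6%), for 3 of 16 copies (18.8%) and for 27.3% of all protein-coding genes. Among all genes with a conservative summit the share was 55.3%. Within divergent genes, 6 of 21 unsuffixed members (28.6%, 13.8 to 49.96%) and 29.6% of all genes had a conservative summit. Within the others, it was 2 of 11 unsuffixed members, Prosalpha3 and Rpn10 (18.2%, 5.14 to 47.7%), and 8.98% of all genes. Compared in this way with genes of the same promoter arrangement, divergent unsuffixed members stood at the background, and the interval for the rest included it.

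The optimal list, drawn from a longer ranking, held promoter summits at 11 of 48 members (22.9%), with 21.9% over all genes. It added Prosalpha7 of the alpha ring (signal 62.94), Prosbeta1 with its caspase-like site (60.1) and the base scaffold Rpn2 (64.25). In the ranking of the true replicates, Rpn2 had a global irreproducible discovery rate (IDR, the estimated share of irreproducible peaks among all ranked as high or higher) of 0.0195 and Prosalpha7 one of 0.0214, just past the threshold of 0.01, while the Prosbeta1 peak had one of 0.774. Just inside it stood Rpn13 with 0.00866 and Rpt5 with 0.00576.

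The replicates gave different members when taken alone. Replicate 1 had promoter summits at 7 of 48 members (14.6%, against 18.6% of all genes): Prosalpha3, Prosbeta1, Prosbeta2, Rpn3, Rpn6, Rpn10 and the lid gene Rpn12. Replicate 2 had them at 3 (6.25%, against 13.2% of all genes): Rpn3, Rpn5 and Rpn13, and at 0 of 25 core genes. Rpn12 had a signal of 38.07 in the list of replicate 1, 42.57 in the ranking of the true replicates and 11.11 in that of replicate 2. Its global IDR in the true-replicate ranking was 0.726, and it was in neither the conservative nor the optimal list.

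Without a threshold, a peak was ranked at more of the standard subunit genes than of the copies. In the ranking of the true replicates, 35 of 48 members (72.9%) had a promoter summit, against 69.3% of all genes. These were 30 of 32 unsuffixed genes (93.8%), among them all 18 unsuffixed regulatory genes, and 5 of 16 copies (31.3%): Prosalpha3T, Prosbeta2R2, Rpn12R, Rpt3R and Rpt6R. The median signal was 39.97 over the 30 unsuffixed genes, 17.62 over the 5 copies and 36.66 over the 9684 genes ranked. Most peaks at this depth of the ranking did not pass the authors' threshold, so such a summit is no call of binding.

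Among members with no summit in any thresholded list, the highest true-replicate signals were 48.57 at Prosbeta5, which carries the chymotrypsin-like site, 44.76 at the lid gene Rpn9, 43.12 at the beta-ring gene Prosbeta3, 37.36 at the alpha-ring gene Prosalpha2, 35.92 at the ATPase gene Rpt4 and 33.74 at the lid gene Rpn8. Prosbeta5 ranked 6706 of 90968, with a global IDR of 0.116. None of the 40 members without a promoter summit had a conservative summit within 1000 bp of a TSS, and 3 had one within 2000 bp: Prosbeta6 at 1115 bp, Rpn11 at 1537 bp and Rpn2 at 1618 bp. Within 1000 bp, 16.7% of the 48 members and 17.1% of all protein-coding genes had a conservative summit. The median distance was 6574 bp for the 24 unsuffixed genes and 26140 bp for the 16 copies. The same distances over all genes were not measured.

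The longer series ranking held a promoter summit at 39 of 48 members (81.3%, against 79.9% of all genes), the ranking of replicate 1 at 36 (75.0%, against 70.2%) and that of replicate 2 at 32 (66.7%, against 64.1%). Unsuffixed genes accounted for 31, 31 and 23 of these. The copies split by replicate: 5 of 16 were ranked in replicate 1 and 9 of 16 in replicate 2. All 4 testis-type genes were ranked in replicate 2, with signals of 16.78 at Prosalpha3T, 16.57 at Prosalpha4T1, 18.33 at Prosalpha4T2 and 4.244 at Prosalpha6T, and only Prosalpha3T in replicate 1, with 7.299. Of all copies, Prosbeta5R2 was the highest in replicate 2, with 34.5 (rank 3322, global IDR 0.733). That was above Rpt5 (33.12) and Rpn6 (27.29) in the same ranking, both members with a conservative summit. In replicate 1 the highest copy was Prosbeta2R2, with 27.07 (global IDR 0.319). No RNA was measured, so whether the testis-type genes were transcribed in these embryos is not known from these data.

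Sequence repeats limit what can be read at a few members. Within 500 bp of their TSSs, every one of the 952 50-base words of Prosalpha1, an alpha-ring gene, and of its copy Prosalpha1R occurred more than once in the reference genome, and neither gene had a summit in any of the 8 lists. The part of repeats in this was not tested. At Rpn3 66 such words (6.93%) and at Prosalpha3 31 (3.26%) were repeated, and at the other 44 members none was. Rpt4R and Prosbeta4R1, with no repeated word, also had no summit in any list.

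Promoters were searched from 250 bp upstream to 50 bp downstream of the canonical TSS for 9 words on both strands, and matches of different words may overlap. The canonical TSS of Rpn6, at 14752910 on 2R, was not the one nearest its summit at 14752382, so that summit lay outside the window searched. The Rpn5 summit, 256 bp upstream, lay just outside it too. The DNA replication-related element TATCGATA was found at 12 of 48 members (25%) and at 8.95% of all protein-coding promoters. It was at 11 of 32 unsuffixed members (34.4%, 20.4 to 51.7%) and at 1 of 16 copies, Rpt3R. Members with a conservative summit had it at 4 of 8 (Prosalpha3, Prosbeta2, Rpn3 and Rpt5), and unsuffixed members without one at 7 of 24 (29.2%, 14.9 to 49.2%). Within 50 bp of the summit it was present at 1 of 8 members, Prosalpha3, where it lay 27 bp from the summit, and at 3.73% of the 2040 genes. The remaining copies, shown above, lay outside that window.

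GGTCACAC, the core of Motif 1, was in 6 of 48 members (12.5%, 5.86 to 24.7%), an interval that includes the 7.53% of all promoters. All 6 were unsuffixed (18.8% of 32, 8.89 to 35.3%). None of the 8 members with a conservative summit had it, with an interval up to 32.4% that includes the 25% (6 of 24) among unsuffixed members without one. CATCNCTA, the core of the Ohler 7 motif, was in 5 of 48 members (10.4%, against 6.32% of all). TGACNNNGC, the antioxidant response element, was in 6 members (12.5%, against 8.48%), and in 0 of the 8 with a conservative summit. TATAAA, the TATA word, was in 18 (37.5%, against 45.3%).

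Some words were less frequent than over all promoters. CAGCTG, an E-box, was in 2 of 48 members (4.17%, against 17.9%) and TAATTA, the homeodomain word, in 5 (10.4%, against 20.1%). GAGAG, the GAGA word, was in 3 of 32 unsuffixed members (9.38%, 3.24 to 24.2%) and 6 of 16 copies (37.5%, 18.5 to 61.4%). The share over all promoters was 30.3%, within the interval of the copies. TTAAAA, which led among words of its length in earlier results of these data, was in 34 of 48 members (70.8%, against 52.6%). The summit windows of 5 of 8 members held it (62.5%, 30.6 to 86.3%), an interval that includes the 41.0% of the 2040 genes. The GC content was 34.5% ± 6.59 (SD) over the 48 member promoters and 39.3% ± 7.79 (SD) over all promoters. For the words of A and T alone, the member intervals were 56.8 to 81.8% for TTAAAA, 4.53 to 22.2% for TAATTA and 25.2 to 51.6% for TATAAA. Those for TAATTA and TATAAA included the share over all promoters. The part of base composition in the word shares was not tested.

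**Figure D5:**
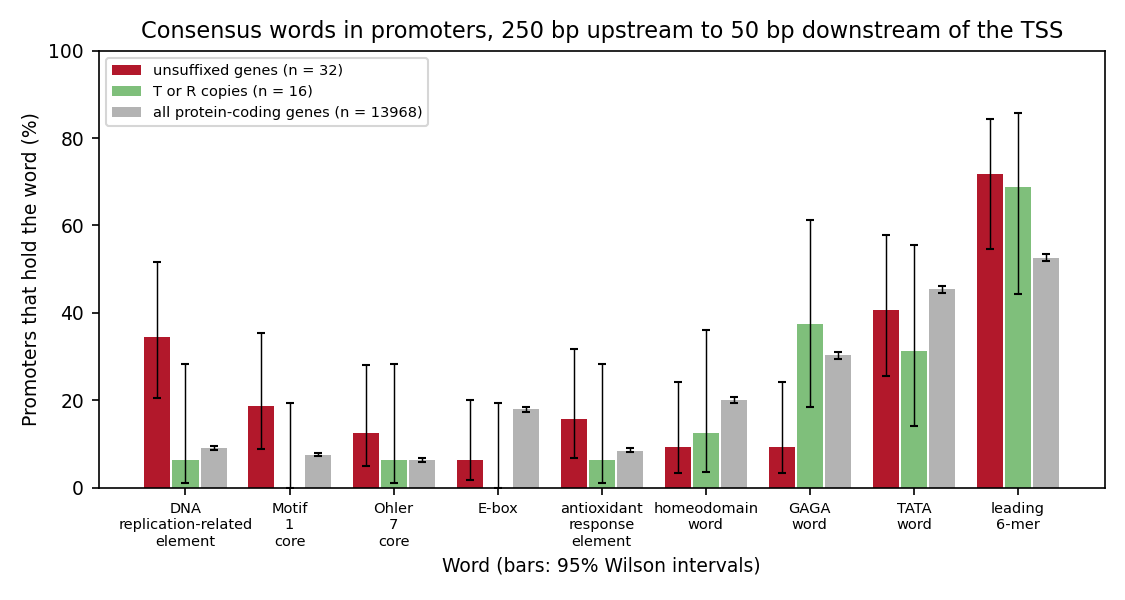
Share of promoters (250 bp upstream to 50 bp downstream of the TSS) with each of the 9 words, in percent with 95% Wilson intervals, for unsuffixed members, copies and all protein-coding genes. The DNA replication-related element was at 34.4% of unsuffixed members against 8.95% of all genes, and the GAGA word at 9.38% of unsuffixed members and 37.5% of copies; the word on the far right is TTAAAA.

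Genes that act with the proteasome were scored in the same way from a list of 31 symbols, of which 28 were found in the annotation. A conservative promoter summit was present at 6 of 28 (21.4%, 10.2 to 39.5%), an interval that includes the 14.6% of all protein-coding genes. The highest was at Pomp, which encodes a chaperone of core particle assembly, with a signal of 205.3 (rank 789) and a summit at -215 bp from the TSS. It was followed by cnc, whose mammalian relative Nrf1 activates proteasome genes, with 180.6 (rank 963, summit at 328 bp), and by the ubiquitin fusion gene RpS27A with 113.7 (rank 1853). The COP9 signalosome, a relative of the lid, contributed CSN5 with 94.95 and CSN3 with 67.52, and Keap1, whose product binds that of cnc, had 89.36.

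Of the 6, Pomp, cnc and Keap1 had a promoter summit in both replicate lists, RpS27A and CSN3 in that of replicate 1 only, and CSN5 in that of replicate 2 only. Pomp had a signal of 137.8 in the list of replicate 1 and 73.13 in that of replicate 2, cnc 77.43 and 104.1, and Keap1 52.57 and 41.68. The optimal list added TER94, which encodes the p97 unfoldase, and Pngl, a peptide N-glycanase gene, with signals of 58.55 and 82.04. Among the promoters of the 28 related genes, 5 held TATCGATA (17.9%, 7.88 to 35.6%), 6 GGTCACAC (21.4%) and 20 TTAAAA (71.4%). TAATTA was in 8 (28.6%) and CAGCTG in 4 (14.3%).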

How the data were processed

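Peak lists from 2 anti-GFP immunoprecipitations of whole embryos were used, on build dm6 per the notes that came with the files. Neither aligner nor peak caller is named in the sources used here. The signal of each peak was set by the authors, on a scale not given here. The rankings also held a score and the −log10 of the global IDR, as the authors deposited them, and the score was not used. A further 4 columns of per-replicate signal in the series rankings have no header and were not used. The conservative list was the main set. The file notes describe the series rankings alike. The one called here the ranking of the true replicates was picked because all 3216 conservative peaks met a global IDR of 0.01 in it, against 3089 in the other. That name is therefore an inference. In the ranking picked, 83 more peaks met this threshold, none of them at a member promoter.

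TSSs came from Ensembl release 115 (7 chromosome arms) and sequence from the dm6 reference. A peak counted as found in a replicate list when they shared at least 1 bp. The labels give 1 group, so no test was made: counts stand beside the same share over all protein-coding genes, with 95% Wilson intervals that cover counting error only, and genes that share a summit are not independent. The members, the related genes and the words were chosen with earlier results of these data known. The rule for named genes took all members with a summit in a thresholded list and the 6 next by true-replicate signal; Rpn11, Prosbeta6 and the members with repeats or ranked copies were named after their values were seen. Alternatives were the optimal list, each replicate alone, other IDR thresholds, other TSS distances, the nearest TSS only and the whole peak in place of the summit. The set of genes with peaks in the rank span of the members other than Rpn3 was added after the data were seen. The functions were tested on simulated data. The tools were numpy 2.4.6, pandas 2.3.3 and scipy 1.17.1 under Python 3.11.15, and figures were drawn with matplotlib 3.10.9.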

Additional observations from a re-analysis of the deposited data

How the results depend on the processing

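Promoter summits were counted at 8 members, 2 core genes, 6 regulatory genes, 0 testis-type genes and 6 related genes. With 1 replicate alone the ranges were 3 to 7 members, 0 to 3 core genes, 3 to 4 regulatory genes and 4 to 6 related genes. Upstream summits were 6 of 7 in replicate 1 (85.7%) and 2 of 3 in replicate 2 (66.7%), in place of 5 of 8 (62.5%). A global IDR of 0.001 or less among the conservative peaks left 1 member (Rpn3), 0 core genes and 1 regulatory gene. It left 3 related genes (Pomp, RpS27A and cnc), and 9.49% of all genes passed. The 1 member summit left, that of Rpn3, was not upstream. Ubi-p63E, with a global IDR of 0.000184 but absent from the conservative list, was not counted there. It was counted at 0.05 or less, where peaks outside that list were used too. With no threshold the counts were 35, 14, 21, 1 testis-type gene and 27 related genes, and 69.3% of all genes had a summit. Of the 35 member summits, 20 were upstream (57.1%). The optimal list gave 4 of 25 core genes (16%, against 21.9% of all genes). Counting the nearest TSS only left 6 of 48 members (12.5%), 1 of 25 core genes (4%) and 10.7% of all genes. Of the 6 member summits, 3 were upstream (50%). Related genes numbered 12 (42.9%, against 19.7% of all genes) at a global IDR of 0.05 or less and 3 (10.7%, against 10.6%) within 200 bp.

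In the summit window in place of the promoter, the word shares among the 8 members with a summit were 12.5% for TATCGATA, 0 for GGTCACAC, CATCNCTA, CAGCTG, TGACNNNGC and GAGAG, and 25% for TATAAA; this alternative holds fewer genes and shorter windows. Leaving out Prosalpha1 and Prosalpha1R, an alternative chosen after seeing the data, gave 8 of 46 members and 2 of 23 core genes. Of the 90 alternatives planned, 59 gave a count within 1.5 times the main one or, for words, a share within its interval, and 31 did not. The 59 include all thresholded settings for the testis-type genes and for the related copies, whose counts stayed at 0. The 90 are not separate checks, because the member, unsuffixed and particle counts hold the same genes. For genes and upstream summits the count was scored, not its share. Replicate 1 alone was within the limit at 14.6% of members, against 18.6% of all genes. The conservative list had 16.7% of members, against 14.6%. The cause of the differences between settings was not tested. No paired analysis was possible because the labels give 1 group. Depth is unknown, and with 48 genes the intervals are wide.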

Other observations

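Ubiquitin genes gave further values. Ubi-p63E, a polyubiquitin gene, had a promoter peak with a signal of 145.4 (rank 1415) in the ranking of the true replicates and a global IDR of 0.000184, which passes the threshold of 0.01, but it was in none of the thresholded lists. Its signal was above that of 7 of the 8 members in the conservative list. The other polyubiquitin gene, Ubi-p5E, had a highest promoter peak with a signal of 63.46 and a global IDR of 0.333, and the ubiquitin fusion gene RpL40 had 38.32 with 0.776. Why Ubi-p63E is absent from the thresholded lists was not tested.

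Among factors that handle substrates, the adaptor genes of p97 had ranked peaks short of the threshold, with signals of 57.83 at p47 and 47.57 at Npl4. The shuttle factor gene Rad23 had no promoter summit in the ranking of the true replicates and one with a signal of 17.68 in that of replicate 1, and the shuttle gene Ubqn had a signal of 7.798 in the former. These genes were picked from the related list after their values were seen.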
